A study of Mus musculus with 2 samples.

Results

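A set of 7 genes that blood flow is known to regulate in endothelial cells (ECs) was followed through single-cell RNA profiles of sorted mouse embryo cells: Klf2, Klf4, Nos3, Thbd, Piezo1, Gja4 and Gja5. They were chosen by symbol, and all 7 were present among the 32285 genes of both libraries. The control library came from Isl1-Cre;R26R-eYFP embryos and the mutant library from Isl1-Cre;R26R-eYFP;Pik3caH1047R embryos, so both carried the Cre and the reporter, and the mutant also carried a Cre-activated transgene encoding the H1047R form of PIK3CA, the catalytic subunit of a PI3-kinase. Tissue from the upper body was taken at E13.5, 3 embryos were pooled per library, and eYFP+ cells were sorted. The sort was for cells descended from ones in which the Isl1 promoter had driven Cre, and its purity was not checked here. The study's mice were of mixed C57BL/6J and ICR background and of both sexes, but almost no control cells were male-like (below). Each genotype is 1 library, so no difference between genotypes could be tested, no p-value is given, and genotype and library cannot be told apart.

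Laminar shear stress acting on the vessel wall induces the zinc finger transcription factors KLF2 and KLF4 through a MEK5, ERK5 and MEF2 cascade, and these factors in turn promote Nos3, which encodes the nitric oxide synthase of ECs, and Thbd, which encodes thrombomodulin, the surface receptor that turns thrombin towards activation of protein C. Piezo1 encodes a mechanically gated cation channel that opens under membrane tension. Gja4 and Gja5 encode connexin 37 and connexin 40, gap junction proteins of arterial endothelium whose levels are also known to respond to flow and Notch signalling, and Gja5 is in addition a gene of atrial and conducting cardiomyocytes.

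After cells with more than 2000 and fewer than 9000 detected genes and under 10% mitochondrial transcripts were kept, 2783 control and 3489 mutant cells remained, with a median of 20412 and 16839 unique molecular identifiers (UMIs, each standing for 1 captured transcript) per cell. The 161 control and 741 mutant cells called EC-like, 902 of 6272 in all, held 3494986 and 14779251 UMIs, and levels below are UMIs of a gene per 1000000 UMIs of a cell group (CPM). Pecam1 was at 611 CPM in control and 490.0 CPM in mutant EC-like cells, against 8.38 and 12.6 CPM in all other cells. Cdh5 was at 705 and 554 CPM, against 2.26 and 6.02 CPM. Both are among the markers that gave these cells their EC-like name, so these levels are no separate check of it. Of the EC-like cells, 90.1% in the control library and 33.7% in the mutant library were female-like by Xist and Y-linked transcripts, and 0.0% and 54.9% were male-like. In all other cells 0.038% and 52.9% were male-like, so the makeup by sex differed along with genotype. The summed level of 10 heat shock genes was 2651 CPM in control and 4393 CPM in mutant EC-like cells. A summed level of 14 genes induced by tissue dissociation was 2829 and 2785 CPM. Pik3ca, counted without separating the transgene from the endogenous gene, was at 45.8 CPM (on 160 UMIs) in control and 45.4 CPM (on 671 UMIs) in mutant EC-like cells. The libraries shared 28 cell barcodes, 12 of them after filtering.

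In the mouse genome (GRCm38, GENCODE annotation), all 7 are protein-coding genes: Klf2 at chr8:72319033-72321656 on the plus strand, Klf4 at chr4:55527143-55532466 on the minus strand, Nos3 at chr5:24364810-24384474 on the plus strand, Thbd at chr2:148404466-148408188 on the minus strand, Piezo1 at chr8:122481698-122551329 on the minus strand, Gja4 at chr4:127311421-127314039 on the minus strand and Gja5 at chr3:96904693-97077416 on the plus strand. Promoter sequence from RefSeq (GRCm38.p6) was matched for 5 of the 7, without Nos3 and Thbd. Klf2 is shown because its induction by flow is known to pass through MEF2, and the connexin genes because their EC levels differed most between the libraries. The 250 bases upstream of each annotated start are given in the direction of transcription, Klf2 at chr8:72318812-72319061 (plus strand), Gja4 at chr4:127314040-127314289 (minus strand) and Gja5 at chr3:97032152-97032401 (plus strand), with a match to the MEF2 motif in capitals in Klf2 and the longest run shared by both connexin genes in capitals in Gja4 and Gja5.
Klf2: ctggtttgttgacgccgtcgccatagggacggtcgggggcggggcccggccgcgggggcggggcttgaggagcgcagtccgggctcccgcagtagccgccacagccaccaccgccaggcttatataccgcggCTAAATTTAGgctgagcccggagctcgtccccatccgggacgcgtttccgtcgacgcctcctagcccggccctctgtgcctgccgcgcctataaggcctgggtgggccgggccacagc
Gja4: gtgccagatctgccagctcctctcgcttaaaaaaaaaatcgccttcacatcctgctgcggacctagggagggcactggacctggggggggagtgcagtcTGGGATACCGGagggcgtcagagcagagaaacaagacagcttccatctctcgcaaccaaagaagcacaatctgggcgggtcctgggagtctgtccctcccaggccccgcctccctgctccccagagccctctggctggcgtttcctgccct
Gja5: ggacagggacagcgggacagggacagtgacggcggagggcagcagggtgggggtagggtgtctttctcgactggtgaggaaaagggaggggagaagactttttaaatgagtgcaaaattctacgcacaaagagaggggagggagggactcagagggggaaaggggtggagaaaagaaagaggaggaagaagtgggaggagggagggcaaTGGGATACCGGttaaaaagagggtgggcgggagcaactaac
The MEF2 match begins 118 bases upstream of the Klf2 start, and 2.92% of 32851 RefSeq mouse promoter windows of this length held such a match on either strand. None of Klf4, Piezo1, Gja4 and Gja5 held one in its window. CACCC, the core of KLF binding sites, was found in the windows of Klf2, Piezo1 and Gja5 and in 52.0% of all windows, with 4 matches in Gja5. TGGGAA was present in 21.6% of all windows and GTAAACA in 3.17%, and neither was present in the windows of these 5 genes, whereas TATAAA was present in Piezo1 and in 12.4% of all windows. Motifs were searched as these letters on both strands. The 11 bases shared by Gja4 and Gja5, TGGGATACCGG, begin 151 and 41 bases upstream of their starts and were found in 4 of 32851 windows (0.0122%), these included; this run was chosen after the windows had been compared, and the longest run shared by any pair of the 5 windows was between 8 and 12 bases. The Gja5 start used by RefSeq lies 127709 bp inside the GENCODE gene, and no match shows that a factor binds there.

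The first comparison asked how the level of each gene in ECs differed between genotypes. Gja4 and Gja5 were lower in the mutant library, while the other 5 genes differed by less than 1.5-fold. Klf2 was at 223 CPM (on 779 UMIs; 95% exact Poisson interval 208 to 239) in control and 267 CPM (on 3942 UMIs; 258 to 275) in mutant EC-like cells, a log2 ratio of mutant over control of 0.26 (95% conditional exact interval 0.15 to 0.37). Klf4 was at 51.8 CPM (on 181 UMIs) and 57.2 CPM (on 845 UMIs), with a log2 ratio of 0.14 (-0.09 to 0.38). These intervals cover counting error only, and UMIs of 1 library are not replicate animals. Nos3 was at 81.8 CPM (on 286 UMIs) in control and 74.0 CPM (on 1094 UMIs) in mutant cells, with a log2 ratio of -0.14 (-0.33 to 0.05). Thbd was at 40.6 CPM (on 142 UMIs) and 45.5 CPM (on 673 UMIs), with a log2 ratio of 0.16 (-0.10 to 0.44). Piezo1 was at 105.9 CPM (on 370 UMIs) and 99.3 CPM (on 1467 UMIs), with a log2 ratio of -0.09 (-0.26 to 0.08). For these 3 genes and Klf4 the interval of the ratio included no difference. Gja4 was at 212 CPM (on 742 UMIs) in control and 86.8 CPM (on 1283 UMIs) in mutant cells, with a log2 ratio of -1.29 (-1.42 to -1.16). Gja5 was at 58.9 CPM (on 206 UMIs) and 20.9 CPM (on 309 UMIs), with a log2 ratio of -1.50 (-1.75 to -1.23). Among the 7 genes, 2 were lower past 1.5-fold and 0 were higher, beside 14.5% lower and 14.0% higher of the 14395 genes with at least 20 UMIs in EC-like cells, whose median log2 ratio was -0.07. Scaling by edgeR's TMM factor moved all log2 ratios by 0.12 and the split of all genes to 11.3% lower and 16.8% higher.

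**Figure D1:**
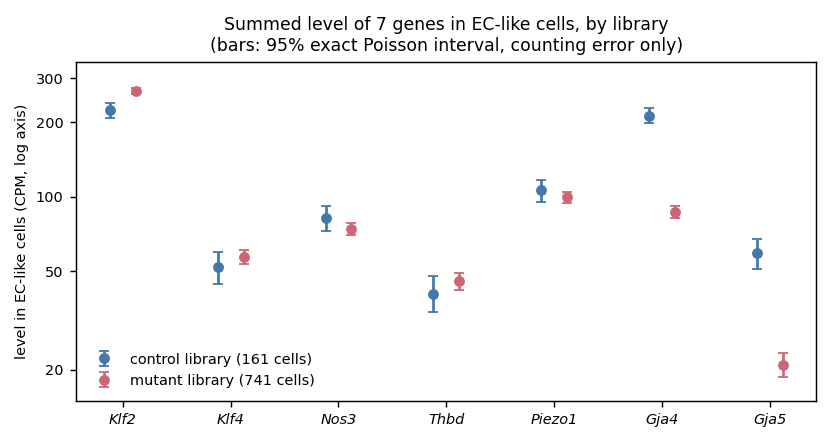
Level of each of the 7 genes in EC-like cells (CPM, log axis) in the control library (161 cells) and the mutant library (741 cells); points are summed levels and bars 95% exact Poisson intervals. The 2 points of Gja4 (212 and 86.8 CPM) and of Gja5 (58.9 and 20.9 CPM) lie far apart, whereas those of the other genes lie close together.

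Among the EC-like cells that were female-like in both libraries, the log2 ratio was -0.99 for Gja4 and -1.33 for Gja5, and among cells at or under the median heat shock share it was -0.69 and -0.87. Over 19 alternatives the ratio of Gja4 ranged from -2.49 to -0.69 and that of Gja5 from -3.26 to -0.87, with the same sign in all 19. The Klf2 ratio was 0.55 in female-like cells, -0.05 in cells at or under the median heat shock share and near 0 when each cell was thinned to 5000 UMIs, so its direction rested on these choices. Klf4 ranged from -0.24 to 0.52 over the alternatives, Thbd from -0.48 to 0.32, Piezo1 from -0.16 to 0.15 and Nos3 from -0.31 to 0.04.

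How far each gene was restricted to ECs was read from the share of its UMIs that lay in EC-like cells. EC-like cells held 5.53% of all UMIs in the control library and 21.2% in the mutant library. Gja4 was the most restricted, with 95.01% of its UMIs in EC-like cells of the control library (93.2 to 96.4%, Clopper-Pearson) and 94.97% of those of the mutant library (93.7 to 96.1%). Nos3 followed with 83.1% and 87.6%. The other 5 genes had large sources outside the endothelium. Gja5 had 46.2% and 50.8% of its UMIs in EC-like cells, Klf2 25.99% and 39.3%, Piezo1 22.2% and 56.8%, Thbd 11.7% and 66.6%, and Klf4 7.08% and 29.9%. In every gene except Gja4 the mutant share was the higher, as was the share of EC-like cells in the library.

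The EC-like cells were split into 7 subclusters with the 7 genes and all listed pathway genes left out of the clustering, so that their levels did not draw the borders. EC 3 (21 control and 89 mutant cells) had 10 of 10 arterial and 8 of 9 endocardial markers raised and was called arterial- and endocardial-like. EC 2 (18 and 110 cells) was capillary- and venous-like, with 7 of 10 such markers, and EC 6 (19 and 30 cells) was lymphatic-like, with 8 of 8. EC 0 (72 and 192 cells), led by Madcam1 and Ptp4a3, took no name. Nor did EC 4 (14 and 92 cells), led by Kirrel3 and Nhs and the shallowest over both libraries. EC 1, led by Fgf23, Trib3 and Slc2a3, held 161 mutant cells and 0 control cells; 0 of 161 control EC-like cells allows a share of up to 1.86% by the floor of 3 counts (Clopper-Pearson upper limit 2.27%). EC 5 (17 and 67 cells) had 9 of 9 smooth muscle markers raised, at a summed 5238 CPM in control and 3479 CPM in mutant cells, and Pecam1 at only 57.5 and 130.04 CPM, so it goes against the EC label; without it the 7 log2 ratios above moved by less than their counting intervals.

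Of the subclusters, the arterial- and endocardial-like EC 3 had the highest Klf2 level in both libraries. Most Klf2 UMIs of EC 3 in the mutant library lay in its endocardial-like cells (below). In EC 3 Klf2 was at 634 CPM (on 208 UMIs) in control and 587 CPM (on 933 UMIs) in mutant cells, with a log2 ratio of -0.11 (-0.33 to 0.11). In the control library the next levels, 234 CPM in the lymphatic-like EC 6, 201 CPM in EC 0 and 195 CPM in EC 4, had overlapping intervals, and EC 5 and EC 2 were lowest at 107 and 84.5 CPM. In the mutant library the levels of EC 3, EC 6 (437 CPM), EC 2 (330.2 CPM) and EC 0 (273 CPM) were each apart from the next. EC 1, without control cells, was at 138 CPM. Between the libraries Klf2 was higher in mutant cells of EC 2, with a log2 ratio of 1.97 (1.45 to 2.53), where the control value rested on 31 UMIs in 8 of 18 cells and endocardial markers summed to 449.9 and 1387 CPM, of EC 6, with 0.90 (0.58 to 1.23), and of EC 0, with 0.44 (0.27 to 0.62). Of all genes, 19.2% in EC 2 and 14.6% in EC 6 were higher past 1.5-fold. The heat shock list was higher in mutant cells, at 2650 and 4618 CPM in EC 2 and 2656 and 4502 CPM in EC 6. It was at 2846 and 4487 CPM in EC 0, and higher in EC 3, EC 4 and EC 5 too. The dissociation list was at 2380 and 3111 CPM in EC 2 and 2379 and 2281 CPM in EC 6. In EC 0 it was at 2521 and 2882 CPM. The part of both lists in the Klf2 ratios was not tested. In EC 4 the Klf2 ratio was -0.20 (-0.68 to 0.31) and in EC 5 -0.06 (-0.56 to 0.48). However, 1 control cell held 24 of the 47 control UMIs of Klf2 in EC 4, and 1 held 24 of the 41 in EC 5. Without the highest cell of each library, Klf2 was at 128 and 136 CPM in EC 4 and at 46.5 and 92.4 CPM in EC 5. Control EC 5 then lay below control EC 2, at 60.4 CPM, and EC 3 stayed highest, at 596 and 542 CPM. Mutant EC 6, where 1 cell held 77 of the 340 UMIs, was then at 356 CPM, beside 308 CPM in mutant EC 2. Intervals were not computed for these values. Without the mutant-only EC 1, the ratio over all EC-like cells was 0.46.

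A finer split at resolution 1.0 separated the arterial-like and endocardial-like cells of EC 3, and there Klf2 differed in the other direction. In the arterial-like group with all 10 arterial markers raised (13 control and 46 mutant cells), Klf2 was at 730.0 CPM (on 126 UMIs) in control and 260.5 CPM (on 172 UMIs) in mutant cells, with a log2 ratio of -1.49 (-1.83 to -1.14). Klf4 was at 139 CPM (on 24 UMIs) and 51.5 CPM (on 34 UMIs) in the same cells. Its log2 ratio was -1.43 (-2.23 to -0.62), beside 19.7% of all genes lower past 1.5-fold. The summed dissociation genes were also lower there, at 2826 CPM in control and 1542 CPM in mutant cells, and their part was not tested. The top 5 control cells for Klf2 held 74.6% of its control UMIs, and the top 5 for Klf4 held 91.7%. The endocardial-like cells, 8 in the control library and 43 in the mutant library, were too few for a ratio. They also had 11 of 12 cardiomyocyte markers raised, with Tnnt2 and Myl2 among their 10 leading genes, and over the whole of EC 3 the cardiomyocyte markers summed to 226 CPM in control and 646 CPM in mutant cells; their part in the Klf2 values was not tested. Of the UMIs of EC 3, they held 82 of the 208 Klf2 UMIs in the control library, and 734 of the 933 in the mutant library lay in 42 of them. In another group (26 and 38 cells), led by Spock2 and Esm1, 6 of 10 arterial markers were raised, but tip cell markers Esm1 and Cxcr4 stood among its 10 leading genes and its mean log2 fold was 0.83 for tip and 0.09 for arterial markers, so it is given no name. There Klf2 was at 191 and 296 CPM, a log2 ratio of 0.63 (0.30 to 0.97). In the finer capillary- and venous-like group (15 and 88 cells) the Klf2 ratio was 1.28 (0.82 to 1.79), beside 20.2% of all genes higher past 1.5-fold. That group took in 1 control cell of EC 0, which held 19 Klf2 and 5 Klf4 UMIs.

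Klf4 followed a flatter order than Klf2. Its highest control level was 100.6 CPM (on 33 UMIs) in EC 3, and its highest mutant level was 98.9 CPM (on 77 UMIs) in the lymphatic-like EC 6, followed by 77.3 CPM in EC 3. The lowest were 30.0 CPM (on 11 UMIs) in control EC 2 and 33.1 CPM (on 30 UMIs) in mutant EC 4. No neighbours in either order had intervals apart. EC 2 was the only subcluster whose ratio lay beyond counting error, at 30.0 against 63.7 CPM and a log2 ratio of 1.09 (0.20 to 2.12).

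The arterial- and endocardial-like EC 3 also had the highest level of Nos3. There Nos3 was at 247 CPM (on 81 UMIs) in control and 172 CPM (on 274 UMIs) in mutant cells, a log2 ratio of -0.52 (-0.88 to -0.14). In the other endothelial subclusters it lay between 74.6 and 88.4 CPM in the control library, in EC 0, EC 2 and EC 4, and between 50.6 and 103.7 CPM in the mutant library, in EC 0, EC 1, EC 2 and EC 4. It was lowest in the lymphatic-like EC 6, at 4.50 CPM (on 2 UMIs) in control and 21.8 CPM (on 17 UMIs) in mutant cells, and in EC 5, at 7.83 CPM (on 3 UMIs) and 15.7 CPM (on 25 UMIs). In the arterial-like group with 10 markers raised, Nos3 was at 284 and 183 CPM, with a log2 ratio of -0.63 (-1.12 to -0.12).

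Thbd did not differ beyond counting error in any of the 6 subclusters with cells of both libraries. It was at 94.5 CPM (on 31 UMIs) in control and 80.5 CPM (on 128 UMIs) in mutant cells of EC 3, a log2 ratio of -0.23 (-0.81 to 0.38). The control level of EC 4 was 95.4 CPM, on 23 UMIs, and the mutant level 61.8 CPM. In the capillary- and venous-like EC 2 it was at 40.9 CPM (on 15 UMIs) and 67.6 CPM (on 137 UMIs), with a log2 ratio of 0.73 (-0.05 to 1.60). The lowest values were 13.1 CPM in control EC 5 and 16.7 CPM in mutant EC 6. At resolution 1.0 it was beyond counting error in opposite directions in a capillary- and venous-like group (15 and 88 cells), with a log2 ratio of 1.02 (0.16 to 2.01), beside 20.2% of all genes higher past 1.5-fold, and in a shallow unnamed group (12 and 85 cells), with -1.14 (-1.87 to -0.35), beside 21.4% lower.

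For Piezo1 the order was a different one, led by EC 4. It was at 187 CPM (on 45 UMIs) in control and 215 CPM (on 195 UMIs) in mutant cells of EC 4. In the mutant library this level was apart from the next, but in the control library it overlapped those of EC 3 and EC 2. EC 2 was at 136 CPM in both libraries. In EC 3 Piezo1 was at 174 CPM (on 57 UMIs) in control and 119 CPM (on 190 UMIs) in mutant cells, a log2 ratio of -0.54 (-0.98 to -0.09), and in EC 5 at 20.9 CPM (on 8 UMIs) and 46.5 CPM (on 74 UMIs), a log2 ratio of 1.15 (0.10 to 2.42). Of the 57 control UMIs of Piezo1 in EC 3, 40 lay in the 8 endocardial-like cells of the finer split. In the arterial-like group the Piezo1 log2 ratio was 0.32 (-0.45 to 1.17). EC 5 was lowest in both libraries and apart from its neighbour. The shallow EC 4 had a median of 14274 UMIs per cell in the control library and 8140 in the mutant library. Its mitochondrial share, 3.77% and 3.46%, was the highest of the subclusters. Pik3ca was also highest there, at 145 and 119 CPM, and how far such traits of EC 4 bear on its Piezo1 level was not tested.

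**Figure D2:**
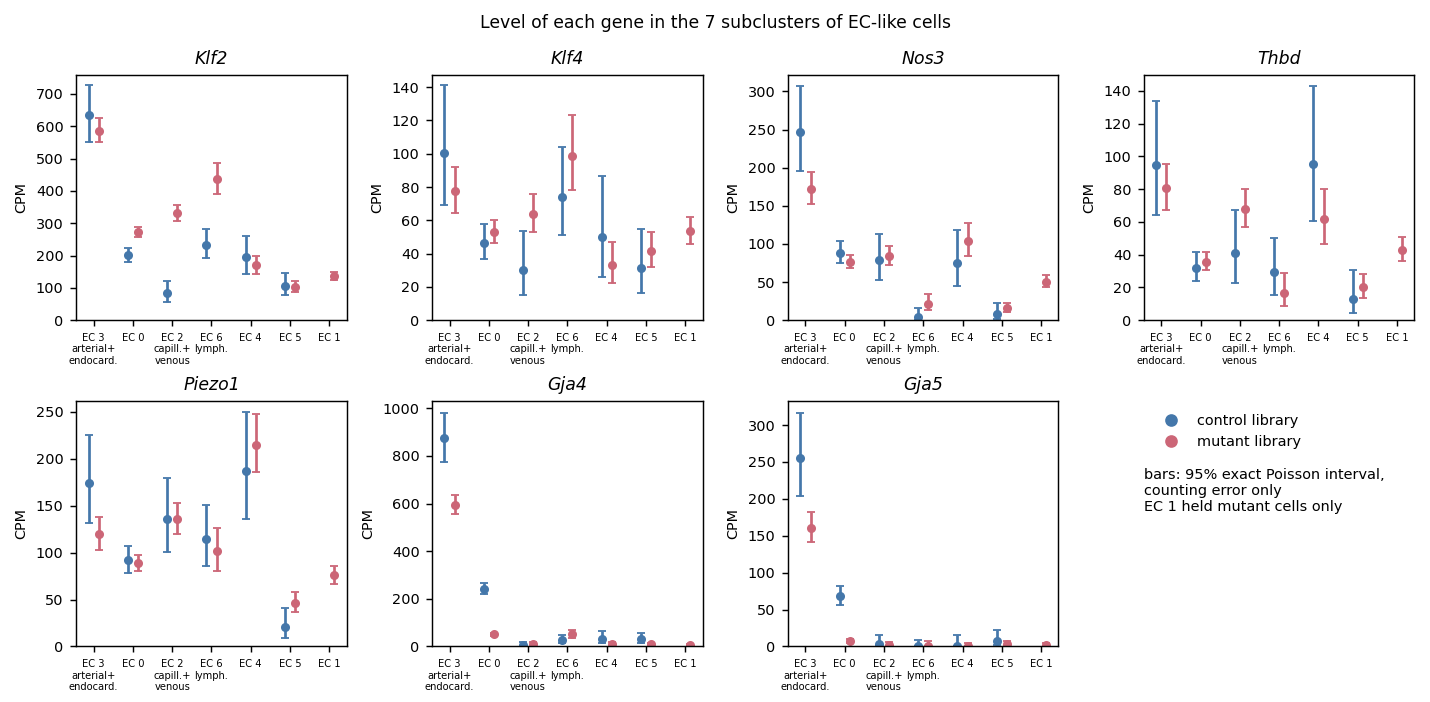
Level of each gene (CPM, linear axes from 0) in the 7 subclusters of EC-like cells, 1 panel per gene, with control and mutant libraries as separate points and 95% exact Poisson intervals. Klf2, Nos3, Gja4 and Gja5 are highest in EC 3 in both libraries, Piezo1 is highest in EC 4, and EC 1 has mutant cells only.

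The connexin genes were the most unevenly spread of the 7. Gja4 was at 875 CPM (on 287 UMIs) in control and 595 CPM (on 946 UMIs) in mutant cells of EC 3, a log2 ratio of -0.56 (-0.75 to -0.36), beside 20.8% of all genes of EC 3 lower past 1.5-fold. In EC 0 it was at 243 CPM (on 420 UMIs) in control and 50.4 CPM (on 223 UMIs) in mutant cells, a log2 ratio of -2.27 (-2.51 to -2.03), beside 14.2% of all genes lower past 1.5-fold there. In both libraries these levels were apart from those below them, except that in the mutant library EC 6, at 51.4 CPM (on 40 UMIs), overlapped EC 0. The mutant-only EC 1 was at 7.80 CPM (on 27 UMIs), the lowest of the mutant subclusters. Gja5 was at 256 CPM (on 84 UMIs) in control and 161 CPM (on 256 UMIs) in mutant cells of EC 3, a log2 ratio of -0.67 (-1.03 to -0.30), and at 68.2 CPM (on 118 UMIs) and 7.68 CPM (on 34 UMIs) in EC 0, a log2 ratio of -3.15 (-3.74 to -2.59). Every other subcluster held at most 8 UMIs of Gja5 in either library. Within EC 0, at least 50% of the Gja5 UMIs lay in 2 of 72 control cells and 3 of 192 mutant cells. For Gja4 in EC 0 that share lay in 4 control and 2 mutant cells.

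Within EC 0, nearly all connexin UMIs came from the cells that the finer split placed in the unnamed group led by Spock2 and Esm1. These 24 control cells held 385 of the 420 Gja4 UMIs and 117 of the 118 Gja5 UMIs of EC 0, and 31 mutant cells held 199 of 223 and 27 of 34. They were 24 of 72 control and 31 of 192 mutant cells of EC 0. Over the whole of this finer group (26 and 38 cells) Gja4 was at 578 CPM (on 390 UMIs) in control and 335 CPM (on 206 UMIs) in mutant cells, a log2 ratio of -0.79 (-1.04 to -0.54), and Gja5 was at 173 CPM (on 117 UMIs) and 43.8 CPM (on 27 UMIs), a log2 ratio of -1.98 (-2.64 to -1.37), beside 14.2% of all genes. In the arterial-like group with all 10 markers raised, Gja4 was at 1459 CPM (on 252 UMIs) and 1098 CPM (on 725 UMIs), a log2 ratio of -0.41 (-0.62 to -0.20), and Gja5 was at 486 CPM (on 84 UMIs) and 341 CPM (on 225 UMIs), a log2 ratio of -0.51 (-0.88 to -0.13). Both ratios in the arterial-like group, and that of Gja4 in the unnamed one, were smaller in size than over all EC-like cells. On few UMIs, Gja4 was lower by more elsewhere. Its ratio was -2.53 (-3.92 to -1.22) in an unnamed finer group with 14 control and 9 mutant UMIs. In another, with 21 and 18 UMIs, it was -2.07 (-3.06 to -1.09). In EC 5, with 12 and 14 UMIs, it was -1.83 (-3.05 to -0.59). In EC 2 and EC 6 it was positive, with intervals that included no difference.

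Other arterial markers were also lower in the mutant library as a sum, which does not show how many of them were lower singly. The summed level of the 10 arterial markers, which do not include these genes and were all detected, was 1659 CPM in control and 699 CPM in mutant EC-like cells, 712 and 346 CPM in EC 0, and 7846 and 2852 CPM in EC 3. The 9 endocardial markers summed to 436 CPM in control and 820.0 CPM in mutant EC-like cells, and to 2243 and 1908 CPM in EC 3. In these summed counts, fewer cells of a type and less RNA per cell cannot be told apart. Few cells held the connexin UMIs: 9 control cells held at least 50% of the Gja4 UMIs, 4 held that share of Gja5, and without the control cell highest in Gja4 (106 UMIs) the control level was 183 CPM. In the mutant library 14 cells held at least 50% of the Gja4 UMIs and 9 of the Gja5 UMIs.

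Set against all other EC-like cells of its library, EC 3 was higher in each of the 7 genes in both libraries. The log2 ratio of EC 3 over the other EC-like cells was 2.61 (2.39 to 2.82) in control and 4.54 (4.36 to 4.72) in mutant cells for Gja4, and 2.73 (2.31 to 3.15) and 5.32 (4.89 to 5.78) for Gja5. For the 5 other genes it was smaller in the mutant library, at 1.81 and 1.36 for Klf2, 1.93 and 1.47 for Nos3, 1.43 and 0.96 for Thbd, 1.11 and 0.50 for Klf4, and 0.81 and 0.30 for Piezo1. The difference between libraries was beyond the counting intervals for Klf2, Gja4 and Gja5 of the separate values, and was not tested. With the arterial-like group and the group led by Spock2 and Esm1 at resolution 1.0 in place of EC 3, these ratios were 0.60 and 0.062 for Klf2, 0.37 and -0.21 for Klf4, and 4.33 and 4.81 for Gja4. The order of the libraries was then the other way for Gja5, at 6.97 and 5.55, and for Thbd, at 0.19 and 0.87.

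The share of cells with at least 1 UMI was compared after each cell had been thinned to 5000 UMIs, which left 158 control and 706 mutant EC-like cells and left out 3 and 35 shallower ones. Gja4 was detected in 25.3% (18.7 to 32.8%, Clopper-Pearson) of control and 13.03% (10.6 to 15.7%) of mutant EC-like cells. The difference was -12.3 percentage points (-19.9 to -5.59, Newcombe interval). Cells of 1 library are not replicate animals. Without thinning the Gja4 shares were 39.8% and 18.8%. Gja5 was detected in 10.1% and 4.96%, a difference of -5.17 points (-11.0 to -0.94). For the other 5 genes the interval of the difference included 0. Klf2 was detected in 43.0% and 41.1%, Piezo1 in 43.0% and 38.8%, Nos3 in 34.2% and 31.2%, Thbd in 21.5% and 17.1%, and Klf4 in 19.0% and 19.3%. In neuron-like cells, taken as a background at the same thinned depth, the shares were at most 1.97% for Nos3, Thbd, Gja4 and Gja5 and 3.24% and 3.28% for Piezo1, but 5.95% and 10.1% for Klf2 and 5.95% and 12.3% for Klf4. Median depths before thinning were 20448 and 18231 UMIs in these EC-like cells and 17644 and 14061 UMIs in these neuron-like cells.

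At that equal depth the connexin genes were often found together. Gja5 was detected in 15 of 40 control cells with a Gja4 UMI (37.5%; 22.7 to 54.2%) and in 1 of 118 without one (0.85%; 0.022 to 4.63%). In the mutant library it was detected in 31 of 92 cells with Gja4 (33.7%; 24.2 to 44.3%) and in 4 of 614 without (0.65%; 0.18 to 1.66%). Klf4 was detected in 29.4% of control and 31.4% of mutant cells with a Klf2 UMI, against 11.1% and 10.8% of cells without one, with intervals that overlapped slightly in the control library and were apart in the mutant library. Thbd was detected in 29.4% and 23.4% of cells with a Klf2 UMI and 15.6% and 12.7% of cells without, again apart only in the mutant library. For Nos3 the intervals overlapped in both libraries, at 38.2% and 29.7% of cells with a Klf2 UMI and 31.1% and 32.2% of cells without. Klf2 was detected in 34 of 68 control cells with a Piezo1 UMI and 34 of 90 without, and in 41.2% and 41.0% of such mutant cells, and those intervals overlapped too.

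Outside the endothelium, each of the KLF genes had other main sources. In the mutant library the highest Klf2 level was in an unnamed cluster (cluster 8, 174 control and 176 mutant cells) with macrophage and erythroid markers, where it was at 131 CPM (on 611 UMIs) in control and 671 CPM (on 3354 UMIs) in mutant cells, a log2 ratio of 2.36 (2.23 to 2.48), where 11.4% of all genes were higher past 1.5-fold. The makeup of this cluster differed between libraries, its macrophage markers summing to 5278 and 1986 CPM and its erythroid markers to 3588 and 13999 CPM, and the part of this in the Klf2 ratio was not tested. Hepatoblast-like cells, 47 in the mutant library and 0 in the control library, had Klf2 at 458 CPM. In branchial muscle-like cells Klf2 was at 7.44 CPM (on 174 UMIs) in control and 37.3 CPM (on 728 UMIs) in mutant cells, a log2 ratio of 2.32 (2.08 to 2.57), and Klf4 was at 13.04 CPM (on 305 UMIs) and 28.0 CPM (on 546 UMIs), a log2 ratio of 1.10 (0.90 to 1.31), where 16.9% of all genes were higher past 1.5-fold. In the same cells the dissociation list was at 1500.3 and 2006 CPM and the heat shock list at 4691 and 6044 CPM, and their part in these ratios was not tested. In mesenchyme-like cells both were lower in the mutant library, Klf2 at 105.7 and 80.8 CPM with a log2 ratio of -0.39 (-0.53 to -0.25) and Klf4 at 112 and 66.9 CPM with -0.75 (-0.89 to -0.60), beside 14.4% of all genes lower past 1.5-fold, as was the dissociation list, at 5238 and 3698 CPM. Mesenchyme-like cells had the highest Klf4 level of all classes in both libraries.

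Thbd and Piezo1 were also transcribed in several non-endothelial classes. Thbd was highest in smooth muscle-like cells, at 81.1 CPM (on 63 UMIs, 39 cells) in control, overlapping the 64.9 CPM of unnamed cluster 5, and 144 CPM (on 65 UMIs, 25 cells) in mutant cells, too few for a ratio. It was lower in the mutant library in mesenchyme-like cells, at 26.8 and 13.52 CPM (280 and 116 UMIs; log2 ratio -0.99, -1.31 to -0.67), and in epithelium-like cells, at 12.3 and 1.11 CPM (50 and 6 UMIs; log2 ratio -3.46, -4.98 to -2.24), where 12.2% of all genes were lower past 1.5-fold. Piezo1 was at 69.9 CPM (on 152 UMIs) in control and 144 CPM (on 161 UMIs) in mutant mesothelium-like cells, a log2 ratio of 1.04 (0.71 to 1.37), beside 23.5% of all genes higher past 1.5-fold there, and above its level in mutant EC-like cells. In mesenchyme-like cells it was at 33.6 and 22.5 CPM, a log2 ratio of -0.58 (-0.84 to -0.32). Nos3 outside the endothelium was at most 10.1 CPM in any class, in the hepatoblast-like cells.

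Gja5 had its known second site in cardiomyocyte-like cells, where it was at 77.4 CPM (on 67 UMIs, 54 cells) in control and 14.1 CPM (on 46 UMIs, 184 cells) in mutant cells, a log2 ratio of -2.45 (-3.03 to -1.89), beside 21.5% of all genes lower past 1.5-fold. In branchial muscle-like cells it was at 1.45 CPM (on 34 UMIs) and 9.32 CPM (on 182 UMIs), a log2 ratio of 2.68 (2.15 to 3.25), and in mesothelium-like cells at 5.98 CPM (on 13 UMIs) and 21.5 CPM (on 24 UMIs), a log2 ratio of 1.84 (0.81 to 2.94). Gja4 was at most 6.90 CPM in any class other than EC-like. In all cells outside the EC-like class together, it was at 0.65 CPM (on 39 UMIs) in control and 1.24 CPM (on 68 UMIs) in mutant cells.

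**Figure D3:**
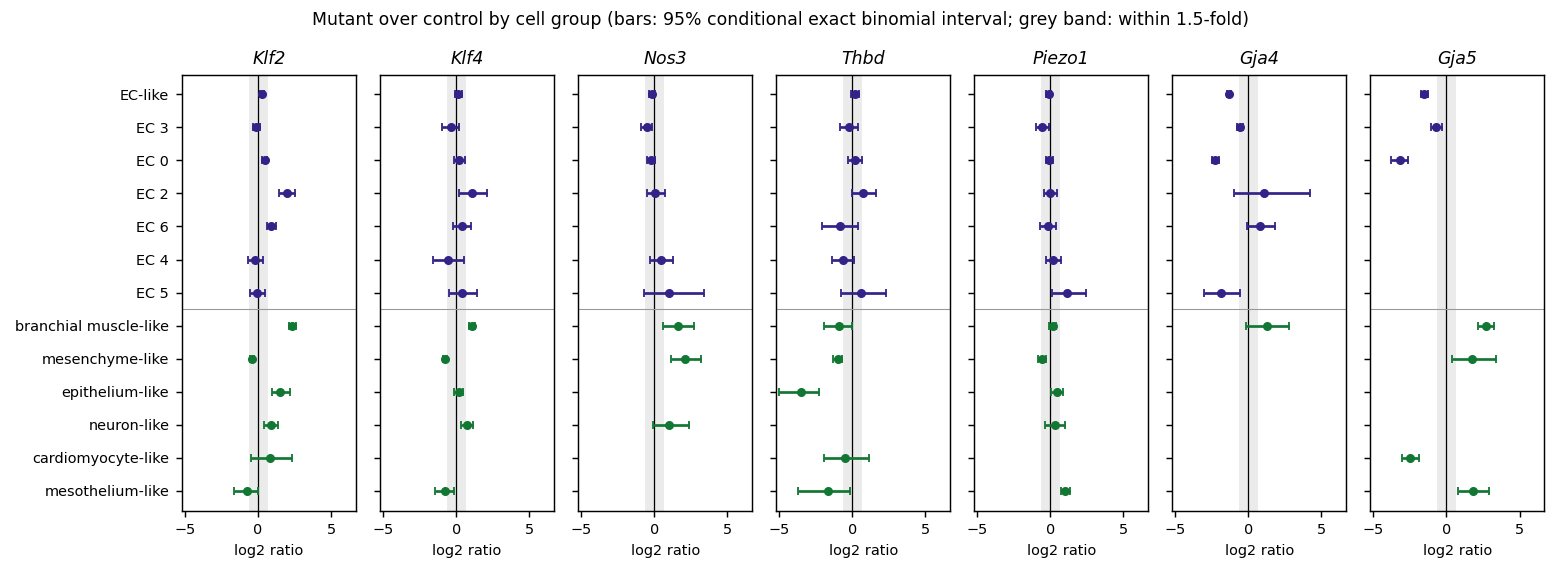
Log2 ratio of mutant over control for each gene (1 panel per gene) in EC-like cells, their subclusters and the other cell groups; bars are 95% conditional exact intervals and the grey band marks ratios within 1.5-fold. Gja4 and Gja5 lie left of the band in EC-like cells (-1.29 and -1.50), while Klf2 and Gja5 lie right of it in branchial muscle-like cells (2.32 and 2.68).

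The genes around these 7 were described in EC-like cells by 8 lists of flow sensing and its effectors and 2 of cell stress, read against the 14.0% higher and 14.5% lower of all genes and their median log2 ratio of -0.07. Of 15 measured mechanosensors and junction genes, 1 was higher past 1.5-fold and 5 were lower (median -0.35). Piezo2, a channel related to Piezo1, was at 376 CPM in control and 179.5 CPM in mutant cells (log2 ratio -1.07), and Sdc4, a heparan sulfate proteoglycan, at 10.3 and 27.6 CPM (1.42). Cdh5 (705 and 554 CPM) and Kdr (592 and 537 CPM), the cadherin and the VEGF receptor of the junctional sensing complex, had the highest levels. Trpv4 had under 20 UMIs. Of 12 genes that belong to the cascade inducing the KLF genes or restrain it, 0 were higher and 3 lower (median -0.18). The 3 lower were Krit1 (log2 ratio -0.63), Hdac5 (-0.93) and Heg1, and no kinase or MEF2 gene of the cascade was among them. Mef2c was at 321 and 296 CPM and Mef2a at 266 and 253 CPM, whereas Heg1, the receptor of the CCM complex that restrains this cascade, was at 183 and 83.4 CPM (-1.13). The largest positive ratio was 0.34, for Mef2d.

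Of 16 other genes known to be raised by laminar flow, 6 were higher and 5 lower past 1.5-fold (median 0.17), and of 12 known to be lowered by it, 7 were higher and 3 lower (median 0.98). Among the first, Hmox1, a heme oxygenase, was at 31.8 and 124 CPM (log2 ratio 1.97), Timp3 at 190.3 and 319 CPM (0.74), Tek at 316 and 306 CPM (-0.05) and Palmd at 49.5 and 17.6 CPM (-1.49). Among the second, Ankrd1 had 0 UMIs in the control library and 481 UMIs (32.5 CPM) in the mutant library, 5.24 higher on the log2 scale when the control was set to a floor of 3 UMIs, with a lower limit of 4.94. Cardiomyocyte markers, a class in which Ankrd1 is also known, summed to 97.3 and 216 CPM in EC-like cells, epithelium markers to 15.2 and 46.8 CPM and hepatoblast markers to 2.86 and 23.6 CPM, and their part in this difference was not tested. Ccn2, like Ankrd1 and Ccn1 a target of YAP, was at 125 and 239 CPM (0.94) and Ccn1 at 279 and 239 CPM (-0.22). Sele, the adhesion molecule E-selectin, was at 8.30 CPM (on 29 UMIs) and 1.35 CPM (on 20 UMIs), with a ratio of -2.62.

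Around Thbd, 8 of 12 genes of anticoagulation and fibrinolysis were higher past 1.5-fold and 2 were lower (median 1.00). Procr, the protein C receptor that works with thrombomodulin, was at 80.1 CPM (on 280 UMIs) in control and 284 CPM (on 4204 UMIs) in mutant cells, a log2 ratio of 1.83 (1.65 to 2.01). Anxa2, which binds plasminogen activator, was at 553 and 954 CPM (0.79) and Serpine2 at 99.0 and 51.0 CPM (-0.96). Around Nos3, 2 of 12 partners were higher and 4 lower (median -0.10). Hsp90ab1 was at 3092 and 3653 CPM (0.24), Hsp90aa1, which is also a heat shock gene, at 408 and 699 CPM (0.78), and Gucy1a1, a subunit of the guanylate cyclase that responds to nitric oxide, at 26.3 and 10.2 CPM (-1.37). Heg1 and Hsp90aa1 each stand in 2 lists.

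Among 13 other KLF genes with enough UMIs, 2 were higher and 4 lower (median -0.26); Klf15 and Klf17 had under 20 UMIs. Klf6 was at 145 and 211 CPM (0.54), Klf3 at 110.2 and 104 CPM (-0.08), Klf5 at 1.72 and 11.9 CPM (2.79) and Klf8 at 7.73 and 2.50 CPM (-1.63). Only 4 of 16 other connexin genes reached 20 UMIs, of which 1 was higher and 1 lower. Gja1, connexin 43, was at 109 CPM (on 380 UMIs) and 58.3 CPM (on 862 UMIs), a log2 ratio of -0.90 (-1.07 to -0.72), and Gjc1 was at 87.0 and 80.1 CPM (-0.12). The 1 higher, Gjd3, had 5 and 39 UMIs, a log2 ratio of 0.88 whose interval (-0.46 to 2.58) included no difference. Of the 10 heat shock genes, 6 were higher and 0 lower (median 0.77), led by Hspa1b at 14.9 and 453 CPM (4.93), with Hspa8 at 0.10, Hspe1 at 0.34 and Dnaja1 at -0.07. Of the 14 dissociation genes, 2 were higher and 3 lower (median -0.03), among them Ier3 (1.30), Jun and Jund (both 0.22) and Fosb (-0.77).

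**Figure D4:**
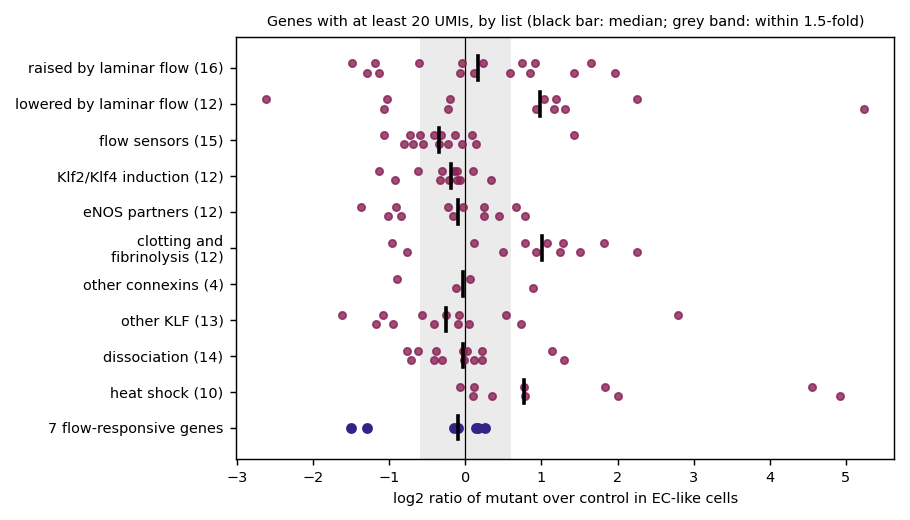
Log2 ratio of mutant over control in EC-like cells for every gene of the 10 lists with at least 20 UMIs, and for the 7 genes, 1 row per list. The anticoagulant list (median 1.00), the flow-lowered list (0.98) and the heat shock list (0.77) lie to the right of the median of all genes (-0.07), and Gja4 and Gja5 lie to the left of the other 5 genes.

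The genes whose levels were most like each of the 7 were sought over 26 sums of cells, each a class or EC subcluster of 1 library with at least 20 cells, among 8603 genes. These sums share 2 libraries and some of their cells, so Pearson's r of log2(CPM + 1) is a description. For Nos3 the 3 closest were Cd93, Ccm2l and Mmrn2, each with r of 0.96. Gja4 was closest to Clec1a (0.91), Gpr182 (0.88) and Gimap5 (0.88), and Piezo1 to Mast4 (0.91), Cpd (0.89) and Hspg2 (0.89). Thbd was closest to Eva1a (0.88), Fblim1 (0.85) and Erg (0.84), Klf2 to Hsd3b7 (0.88), Cd40 (0.86) and Lbp (0.85), and Klf4 to Megf6 (0.89), Fuca1 (0.86) and Ppp1r15a (0.86). For Gja5 likeness was weaker, at 0.73 for Trim47 and 0.71 for Alas1.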

How the data were processed

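Droplet libraries of sorted eYFP+ cells were made by the authors with a 10x Genomics 5′ kit, and reads were processed with Cell Ranger 7.1.0 against mm10 (per the labels and the study's methods). Whether intronic reads were counted and which annotation release was used are not given in the sources used here. The authors deposited raw UMI counts per gene and cell, 4505 control and 5357 mutant cells, and these counts were used as deposited.

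Only cells whose detected genes numbered above 2000 and below 9000, with under 10% mitochondrial UMIs, were kept. Libraries were integrated and clustered in Seurat 5.3.0 on variable genes without the 7 genes and the listed genes, and classes were named from marker lists. Doublets were kept, because Scrublet (in scanpy 1.11.5) marked 0 control and 1 mutant cell by its own threshold; removing the highest scores (162 and 230 cells) was an alternative. UMIs were summed per group and library, with exact Poisson, conditional exact binomial and Clopper-Pearson intervals at 95% (scipy 1.17.1). Differences between shares of cells have Newcombe intervals, built from Wilson scores, at 95%. All these intervals cover counting error only. A count of 0 was set to a floor of 3 UMIs for ratios. Ratios are given for classes with at least 50 cells and subclusters with at least 10 cells in each library. Called means past 1.5-fold, among genes with at least 20 UMIs. The code for the Poisson, binomial and Clopper-Pearson intervals was tested on simulated data. Scaling by edgeR 4.0.16 TMM factors was an alternative.

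All 7 genes are named; in each list the 2 genes with the highest level and those with the largest positive and negative ratio are named. A gene that the rule for lists and 1 that the rule for likeness would name are not reported here. The genes and lists were chosen with earlier results of these data known.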

Additional observations from a re-analysis of the deposited data

Results flagged for a closer look

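Several genes had ratios of mutant over control that pointed in opposite directions in different cell groups, in each case with counting intervals on either side of 0. No test of these differences was possible with a single library of each genotype, so they were not tested, and the pairs shown are the highest and lowest of the ratios beyond counting error among the named classes, or among the subclusters of EC-like cells.

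The log2 ratio of Klf2 was 2.32 in branchial muscle-like cells and -0.39 in mesenchyme-like cells, and that of Klf4 was 1.10 in branchial muscle-like cells and -0.79 in mesothelium-like cells. Piezo1 was at 1.04 in mesothelium-like cells and -0.58 in mesenchyme-like cells. Gja5 was at 2.68 in branchial muscle-like cells and -2.45 in cardiomyocyte-like cells. For Gja4 the ratio was 3.18 in epithelium-like cells, on 1 control and 12 mutant UMIs (0.42 to 8.60), and -1.29 in EC-like cells. The epithelium-like count is under the minimum of 20 UMIs, at 0.25 and 2.23 CPM. In the same cells the EC markers Cdh5 and Pecam1 were at 1.72 and 4.08 CPM and at 5.65 and 4.83 CPM. Their bearing on this ratio was not tested.

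Within the EC-like cells, Nos3 was at 2.28 in the lymphatic-like EC 6, on 2 control and 17 mutant UMIs (0.20 to 5.44), and -0.52 in the arterial- and endocardial-like EC 3. The Nos3 count of EC 6 is also under the minimum of 20 UMIs. Piezo1 was at 1.15 in EC 5, which had smooth muscle markers, and -0.54 in EC 3. In the arterial-like group within EC 3 its ratio was 0.32 (-0.45 to 1.17).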

How the results depend on the processing

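With 1 library per genotype, no value carries a replicate error and leaving out a library was not possible. No paired analysis was possible because each genotype has 1 library and no result comes from a test. Of the alternative ratios in EC-like cells, 105 moved by less than the counting interval and 26 by more. Another 2, both of Klf2, changed sign although the reported interval excluded no difference. The sign was that of the reported ratio in 17 of 19 alternatives for Klf2, 16 for Klf4, 18 for Nos3, 16 for Thbd, 15 for Piezo1 and 19 for Gja4 and Gja5. The 4 alternatives that leave out an EC subcluster were chosen after seeing the data. The cause of each shift below was not tested.

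In female-like cells the log2 ratio was 0.55 for Klf2, 0.52 for Klf4 and -0.99 for Gja4. In G1 cells it was 0.016 for Klf2, 0.15 for Piezo1, -1.60 for Gja4 and -2.13 for Gja5. In cells at or under the median dissociation share it was -0.24 for Klf4, -0.48 for Thbd and -1.78 for Gja5, and in those at or under the median heat shock share -0.048 for Klf2, -0.17 for Klf4, -0.69 for Gja4 and -0.87 for Gja5. Without EC 1 it was 0.46 for Klf2, -0.94 for Gja4 and -1.15 for Gja5, and without EC 3 -2.49 for Gja4 and -3.26 for Gja5. As a mean over cells it was 0.073 for Klf2, -0.15 for Thbd, 0.13 for Piezo1 and -1.57 for Gja4, and after thinning to 5000 UMIs -0.0018 for Klf2, -0.25 for Thbd and -1.62 for Gja4. TMM scaling gave 0.38 for Klf2, and weighting subclusters by the control mix 0.44. The control weights leave out EC 1, which has no control cells.

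With the arterial-like group and the group led by Spock2 and Esm1 at resolution 1.0, the log2 ratio over other EC-like cells was in the control library 0.60 for Klf2, 0.37 for Klf4, 1.40 for Nos3, 0.19 for Thbd, 0.35 for Piezo1, 4.33 for Gja4 and 6.97 for Gja5, and in the mutant library 0.062 for Klf2, -0.21 for Klf4, 1.07 for Nos3 and 4.81 for Gja4. The difference in share of cells was 2.96 points for Thbd and 4.22 for Piezo1 at 8000 UMIs, 7.33 for Piezo1 at 3000 UMIs and -21.0 for Gja4 without thinning. Connexin genes past 1.5-fold numbered 1 with a minimum of 100 UMIs, 5 with a minimum of 1 UMI, 1 after thinning and 1 in female-like cells, and dissociation genes 3 in female-like cells.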
